A study of Mus musculus with 6 samples.

Results

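Kinesins are motor proteins that burn ATP to walk along microtubules or to take their ends apart. The kinesin heavy chain genes were chosen by name: every protein-coding gene of the count table whose mouse symbol is Kif and a digit, whatever its level. That gave 38 kinesin genes of 35727 genes in the table, and Kif1bp was left out because it encodes a kinesin-binding protein and not a heavy chain. By function, 11 of them are mitotic kinesins, 13 carry cargo along microtubules (transport kinesins), and 14 act in cilia or regulate microtubules. The genes whose level is described were selected on their mean level over all 6 libraries, at least 0.5 CPM (counts scaled to a common library size), and 27 of the 38 reached it. These levels are therefore a description and carry no test. The lowest gene inside that limit was Kif5c with a mean of 5.01 CPM, and the highest outside it were Kif9 with 0.467 CPM and Kif5a with 0.383 CPM.

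The libraries were made from RFP-positive cells sorted out of undifferentiated pleomorphic sarcomas, soft tissue tumours of mesenchymal origin, that grew in mice after transplantation. All cells descend from 1 line, p53KO Ccne1 OE, made from mesenchymal stem cells of female C57/Bl6 mice without p53, which received a retrovirus for cyclin E1 (Ccne1) and RFP and were passaged through wild-type females. In 3 libraries the line carried a virally delivered hairpin that targets Postn, which encodes the matrix protein periostin (shPostn, called Postn-KO in the titles), and in 3 a scrambled hairpin (shSCR, called Postn-WT); the p53 loss and the Ccne1 vector are common to both groups. No animal age, no second line and no other hairpin is given. Nothing in the labels states that replicates are separate tumours, so p-values measure only the spread between these samples, which may be technical. Postn, the targeted gene, was measured at 4097, 3602 and 3225 CPM in shSCR replicates 1 to 3 and at 217.2, 470.8 and 638.9 CPM in shPostn replicates 1 to 3, a log2 fold change of -3.04 ± 0.41 (SE, edgeR adjusted p = 0.0125).

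Library totals ranged from 19603269 to 20376554 counts. Of 9 markers of mesenchymal tumour cells, the collagen gene Col1a2 and the fibronectin gene Fn1 lay at 8600 CPM or more in every library, while Thy1 lay between 0.257 and 3.89 CPM, and 0 of 9 passed edgeR's test (1 with an unadjusted p under 0.05, and 1 called by DESeq2). One library stood apart: the 15 leukocyte markers summed to 1162 CPM in shPostn replicate 3, against 62.73 and 141.2 CPM in the other shPostn libraries and 88.02 to 247.6 CPM in shSCR, and all 15 had their highest value there. Between the groups 0 of these 15 passed edgeR's test, 0 had an unadjusted p under 0.05, and DESeq2 called 0. The part of other cells in the kinesin results was not tested, and each called kinesin is given below with and without that library. In bulk RNA, fewer cells of a type and less RNA per cell cannot be told apart.

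Mitotic kinesins build the spindle, move chromosomes and split the cell, and their messenger RNAs accumulate as cells approach division. Their level in a tumour can therefore vary with the share of dividing cells, which was not measured here. Transport kinesins haul vesicles, organelles and messenger RNAs towards the plus ends of microtubules, which in most cells point to the cell periphery. A further set works at the primary cilium or trims and steadies microtubule ends. Cargo is attached through light chains and adaptors, and the opposite journey is made by dynein.

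Some mitotic motors fell in shPostn, and single members of the transport and microtubule-regulating kinesins rose. Kif20a, Kif2c and Kif22 fell by 32.5%, 25.7% and 19.9% in shPostn, and Kif24, a regulator of centriole and cilium formation, fell by 33.5%. Kif3c and Kif1c, both transport motors, rose 1.69-fold and 1.22-fold, and Kif21a, which restrains microtubule growth, rose 1.90-fold. Kif20a lies on chromosome 18 and Kif3c on chromosome 12, where genes as a whole were lower and higher in shPostn. Of the 38 genes, 28 had enough counts to be tested. In edgeR's quasi-likelihood test 7 of these 28 passed an adjusted p of 0.05, 3 higher and 4 lower in shPostn. Over all 12819 genes tested, 10.1% passed, 4.61% higher and 5.53% lower. None of the 28 owed its place in the test to one group alone, since 27 of them lay above 1 CPM in all 6 libraries and the other, Kif9, lay near the count limit in both groups. When 1 library was left out in turn, Kif20a, Kif3c and Kif21a passed in all 6 fits, while the other 4 genes lost the call in at least 3 of them.

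**Figure D1:**
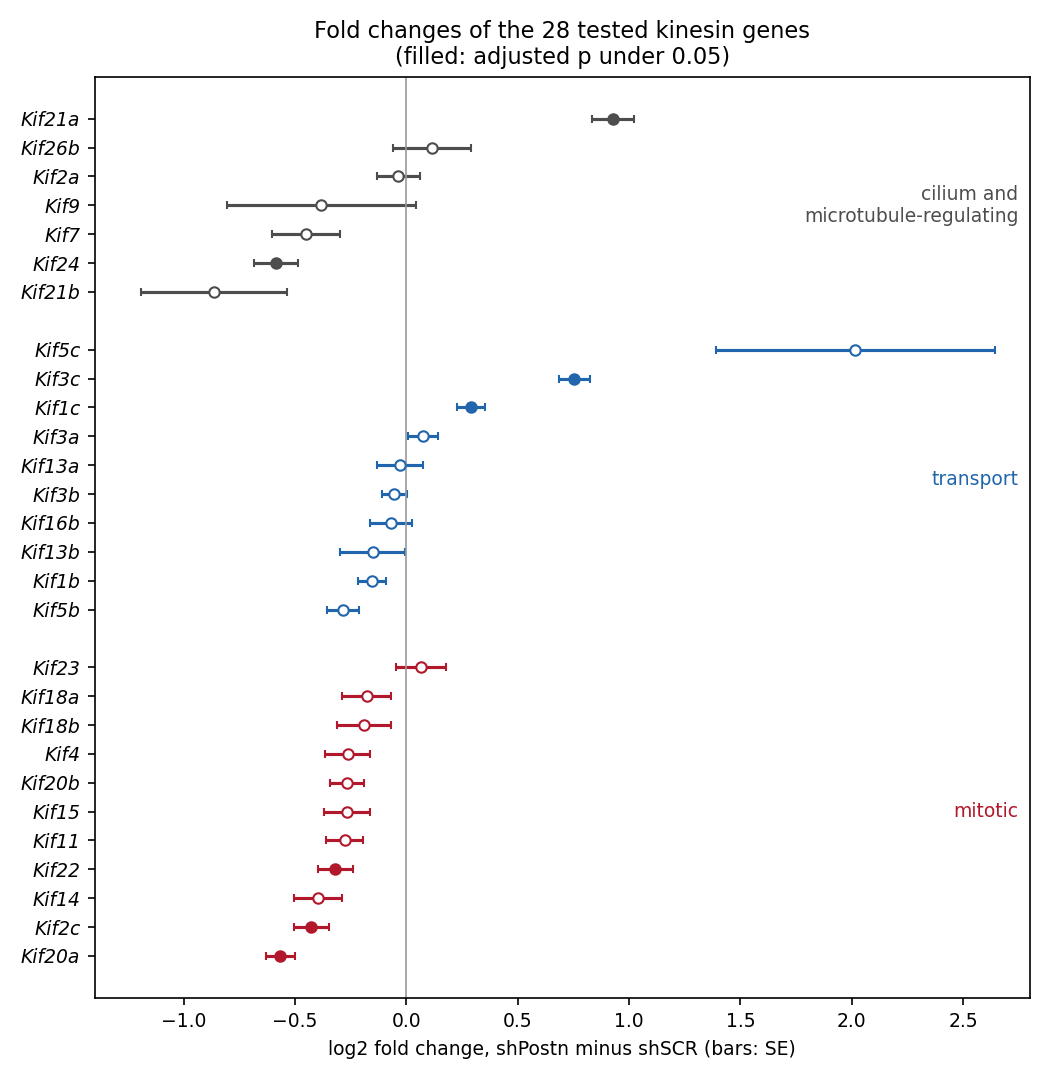
Log2 fold changes of the 28 tested kinesin genes, shPostn minus shSCR, with their SE as bars; filled points have an edgeR adjusted p under 0.05 and colours give the role. Among the 11 mitotic kinesins 10 points lie left of 0 and 3 are filled, whereas the transport kinesins lie on both sides of 0 and Kif5c has the widest bar.

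Levels between genes were compared per kilobase of exon, on the mean over all 6 libraries. The highest were Kif20a at 24.7, Kif5b at 22.2 and Kif1c at 21.4 CPM per kilobase, so a motor of cell division stood beside the conventional kinesin of cargo transport. Next came Kif26b, an atypical member involved in cell polarity and adhesion, at 13.2, Kif2c at 12.1, Kif1b at 11.0, Kif23 at 10.6, Kif3c at 10.2 and Kif3a at 10.1 CPM per kilobase. The lowest of the 27 were Kif18a at 1.41, Kif24 at 1.40 and Kif5c at 0.702 CPM per kilobase. All 11 mitotic kinesins were among the 27, as were 10 of the 13 transport kinesins and 6 of the 14 others. The order depended on the length used: with the longest transcript in place of all exons, 15 of the 27 levels moved by more than the spread between libraries, Kif23 from 10.6 to 24.6 and Kif15 from 3.20 to 7.25 CPM per kilobase.

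**Figure D2:**
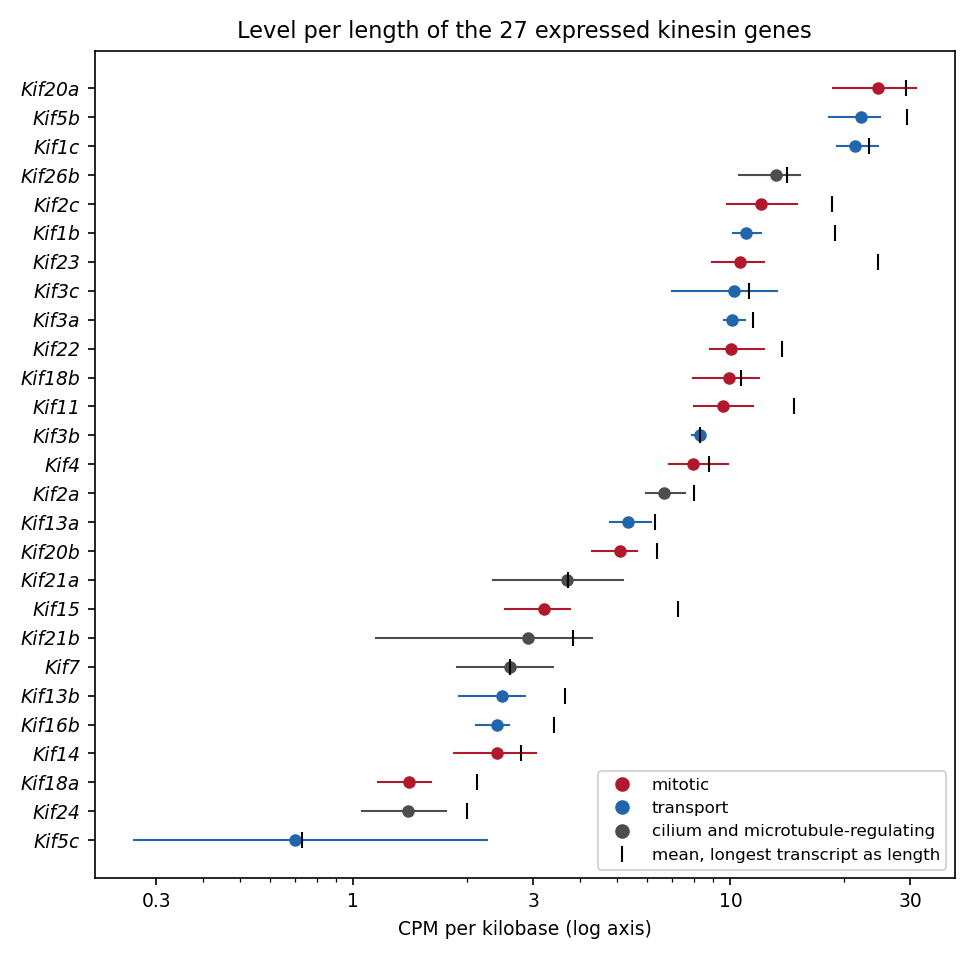
Level of the 27 kinesin genes with a mean of at least 0.5 CPM, in CPM per kilobase of exon on a log axis; points are means over 6 libraries, lines run from the lowest to the highest library and vertical ticks give the mean with the longest transcript as length. Kif20a, Kif5b and Kif1c lie at the top between 21.4 and 24.7, and Kif5c at the bottom has the longest line.

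The other 11 genes were near or at 0. Kif6, Kif27, Kif2b and Kif28 had 0 counts in every library, which at these depths allows few transcripts but does not show that there are none. The neuronal motors Kif1a and Kif5a had 1 to 8 and 3 to 11 counts per library, Kif9 a mean of 0.467 CPM, and Kif12, Kif17, Kif19a and Kif26a at most 2 counts in any library. Several of these genes serve motile cilia (Kif6, Kif9, Kif19a, Kif27). The ciliated cell markers Dnah5 and Tekt1 had 0 counts in all 6 libraries. Ccdc39 and Foxj1 of the same list were detected in every library, at 0.513 to 1.43 CPM and 0.391 to 0.872 CPM. The 6 markers of that list in the table summed to between 1.17 and 2.26 CPM.

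Among mitotic kinesins, Kif20a was the gene with the clearest difference. Its protein, also called MKLP2, brings the chromosomal passenger complex to the central spindle, where the cleavage furrow forms. Kif20a was measured at 125.8, 134.4 and 123.3 CPM in shSCR and at 89.22, 88.56 and 81.12 CPM in shPostn. Every shPostn library lay below every shSCR library, with 127.8 ± 5.81 CPM on average in shSCR and 86.3 ± 4.49 CPM in shPostn (SD, n = 3 each). Kif20a fell by 0.57 ± 0.07 on the log2 scale (SE, edgeR adjusted p = 0.00545), and without shPostn replicate 3 by 0.52 (adjusted p = 0.00254).

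Kif20a lies on chromosome 18, at 34624613 to 34633277 of GRCm38, and the genes of chromosome 18 with a mean above 4 CPM (281 genes) had a median log2 fold change of -0.45. With each chromosome's median taken out, the log2 fold change of Kif20a was -0.12 and the adjusted p was 0.336, so the call ended. Exons of Cdc23 on the other strand overlap 29.3% of the Kif20a exons. Libraries were strand-specific per the labels, but whether counting used strand is not given in the sources used here.

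Kif2c, a depolymerase that corrects faulty attachments of chromosomes to the spindle, was measured at 60.17, 65.67 and 55.58 CPM in shSCR and at 42.63, 46.25 and 46.01 CPM in shPostn. The groups did not overlap, and Kif2c fell by 0.43 ± 0.08 on the log2 scale (SE, edgeR adjusted p = 0.0185). Without shPostn replicate 3 it fell by 0.44 (adjusted p = 0.0138). The call ended when shSCR replicate 1, shSCR replicate 2 or shPostn replicate 2 was left out (adjusted p = 0.0696, 0.0756 and 0.0529). It also ended with chromosome medians taken out, at -0.285 and an adjusted p of 0.0833; Kif2c lies on chromosome 4, whose median was -0.14.

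Kif22, a chromokinesin that pushes chromosome arms towards the spindle equator, was measured at 53.92, 60.05 and 49.59 CPM in shSCR and at 43.56, 44.28 and 43.21 CPM in shPostn. The shPostn libraries lay close together and below all shSCR libraries. Kif22 fell by 0.32 ± 0.08 on the log2 scale (SE, edgeR adjusted p = 0.0477), close to the threshold. The call ended when any 1 of the 6 libraries was left out, with adjusted p values of 0.130, 0.144 and 0.0611 without shSCR replicates 1 to 3 and 0.0993, 0.111 and 0.0528 without shPostn replicates 1 to 3. It ended too with chromosome medians taken out (-0.26, adjusted p = 0.104), with no composition factors (0.0528), with limma-voom (0.0542) and with the replicate number as a block (0.0744).

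**Figure D3:**
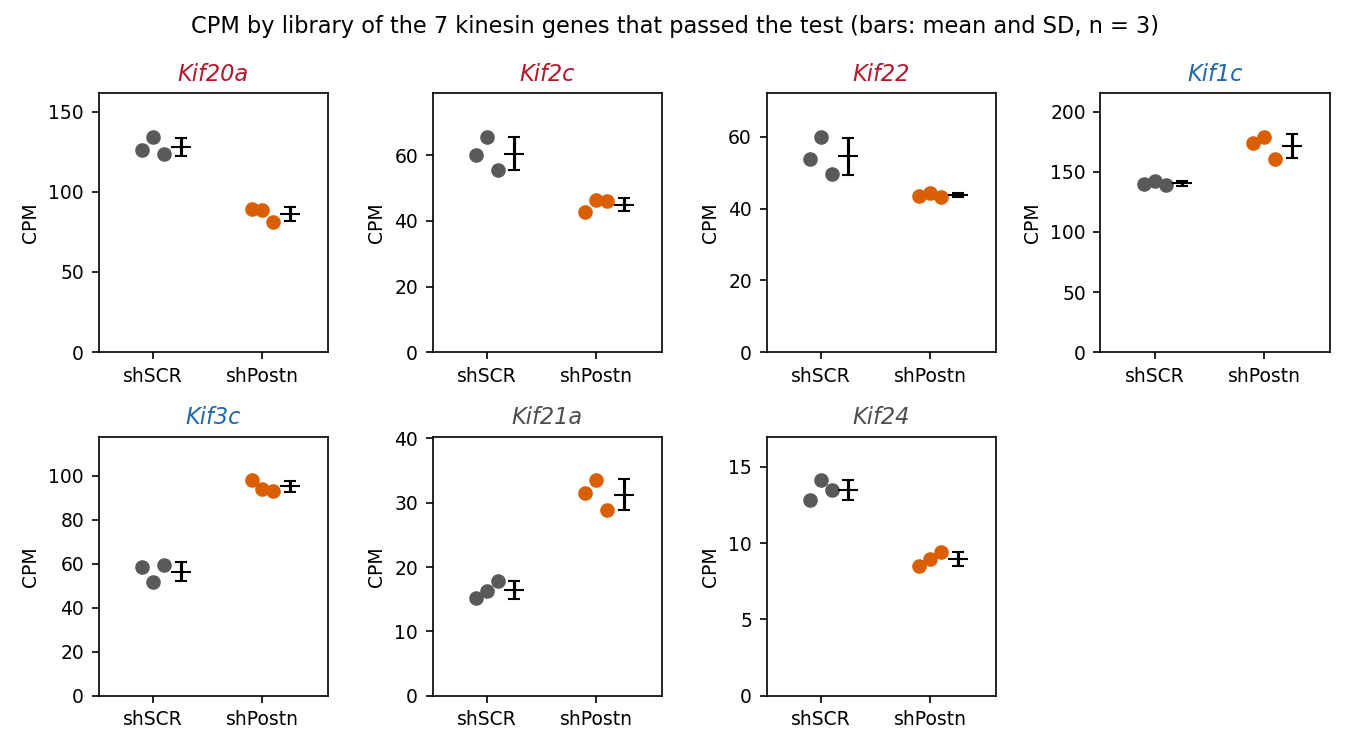
CPM in each library of the 7 kinesin genes that passed the test, with shSCR in grey, shPostn in orange and the mean and SD (n = 3) beside each group; every vertical axis starts at 0. In all 7 panels the groups do not overlap, and for Kif22 the highest shPostn library lies at 44.28 CPM and the lowest shSCR library at 49.59 CPM.

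The remaining 8 mitotic kinesins did not pass. Kif11, the tetrameric motor that pushes the spindle poles apart, was measured at 76.75, 85.51 and 71.98 CPM in shSCR and at 67.06, 66.57 and 59.59 CPM in shPostn, without overlap (log2 fold change -0.28 ± 0.08, SE; edgeR adjusted p = 0.0823). Kif14, a midbody motor, was measured at 25.93, 31.56 and 27.31 CPM in shSCR and at 22.57, 22.64 and 19.13 CPM in shPostn (-0.40 ± 0.11, adjusted p = 0.0601), again without overlap. The cytokinesis motor Kif20b, the chromokinesin Kif4 and the spindle motor Kif15 had log2 fold changes of -0.27, -0.26 and -0.27 (adjusted p = 0.0741, 0.143 and 0.146), also without overlap. Groups overlapped for Kif18a and Kif18b, which act on the plus ends of spindle microtubules (-0.18 and -0.19, adjusted p = 0.358 and 0.370). Pdzd11 on the other strand overlaps 15.1% of the Kif4 exons.

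Kif23 was the mitotic kinesin with a fold change above 0. With Racgap1 it forms centralspindlin, which bundles the central spindle. It was measured at 78.82, 83.51 and 82.49 CPM in shSCR and at 96.97, 88.66 and 70.53 CPM in shPostn, where the libraries lay on both sides of the shSCR values. The log2 fold change was 0.07, with a 95% interval from -0.20 to 0.33 (adjusted p = 0.758).

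Across the group, 3 of 11 mitotic kinesins were lower and 0 higher at an edgeR adjusted p of 0.05, against 5.53% and 4.61% of all genes tested. In 10 of 11 the fitted log2 fold change was below 0, against 48.4% of all genes tested. An unadjusted p under 0.05 was found in 8 of the 11, against 27% of all genes tested, and DESeq2 called 5 lower and 0 higher, against 15.4% of all genes called in either direction. The median was -0.27, with a range from -0.57 to 0.07, beside a median of 0.01 over all genes. In 8 of 11 every shPostn library lay below every shSCR library, and in 0 of 11 above. Over all genes the groups did not overlap in 33.6%, with shPostn below in 17% and above in 16.6%. Summed over the 11 genes, mitotic kinesins gave 589.1, 652.6 and 583.4 CPM in shSCR and 512.3, 512.8 and 463.8 CPM in shPostn, 608 ± 38.4 against 496 ± 28.2 CPM (SD, n = 3 each), again without overlap. The median lay between -0.33 and -0.21 when 1 library was left out, and was -0.28 with chromosome medians taken out. Kif20a, Kif2c and Kif22 all lost the call in that fit, in which 5.1% of all genes passed.

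The libraries of a group were not alike. In 10 of the 11 mitotic kinesins shSCR replicate 2 was the highest of its group, and in 9 of 11 shPostn replicate 3 was the lowest of its group, the same library in which leukocyte markers were high. Without shPostn replicate 3 the mitotic median was -0.23, and without shSCR replicate 2 it was -0.21. The number of mitotic kinesins called lower was then 2 in a fit that called 17.1% of all genes, and 1 in a fit that called 2.36%.

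**Figure D4:**
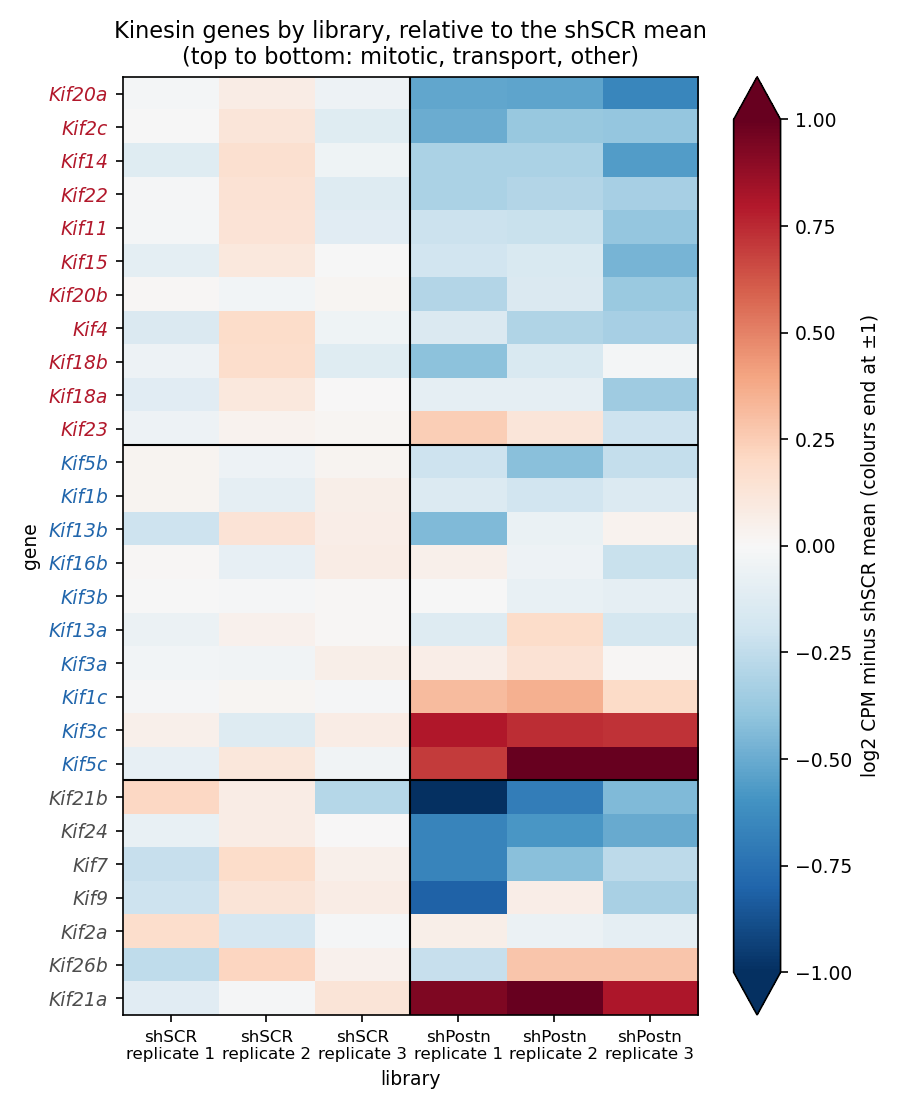
Each tested kinesin gene (rows, coloured and separated by role) in each library (columns), as log2 CPM minus the mean of the 3 shSCR libraries; blue is lower, red is higher and colours end at 1. The mitotic rows are mostly blue in the 3 shPostn columns except Kif23, while Kif3c, Kif5c and Kif21a are red in all 3.

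Genes switched on late in the cell cycle often carry a cell cycle homology region (CHR), spelled TTTGAA, close to their start, and many have a CCAAT box upstream, where the factor NF-Y binds. Both were searched on both strands in RefSeq promoter windows of GRCm38.p6, from 250 bases before to 50 after the start. Windows were held for 24 of the 28 tested kinesins and not for Kif20a, Kif5b, Kif13b and Kif21b. TTTGAA was found in 9 of 10 windows of mitotic kinesins, against 17.9% of all 32851 windows. It was found in 1 of 12 windows of transport kinesins (Kif1a) and in 2 of 13 windows of the others (Kif26b and Kif27). In the 250 bases before the start alone, it was found in 5 of 10, 1 of 12 and 2 of 13 windows, against 16.0% of all. Within 25 bases of the start, a limit chosen after the positions were seen, it was found in 7 of 10, 0 of 12 and 1 of 13 windows, against 2.65% of all. CCAAT was found in 6 of 10, 4 of 12 and 5 of 13 windows, against 37.4% of all. The match in Kif2c was 103 bases and that in Kif14 was 228 bases before the RefSeq start, and both of these starts lie inside the gene as GENCODE draws it. The starts of Kif4, Kif15 and Kif22, each with a match within 25 bases, also lie inside the gene. Of the 10 mitotic kinesins with a window, only Kif18a lacked TTTGAA. Kif18a did not pass the test, and neither did Kif11, Kif14, Kif15, Kif18b, Kif20b, Kif23 and Kif4, which hold a match. A match is a description and not a binding site.

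**Figure D5:**
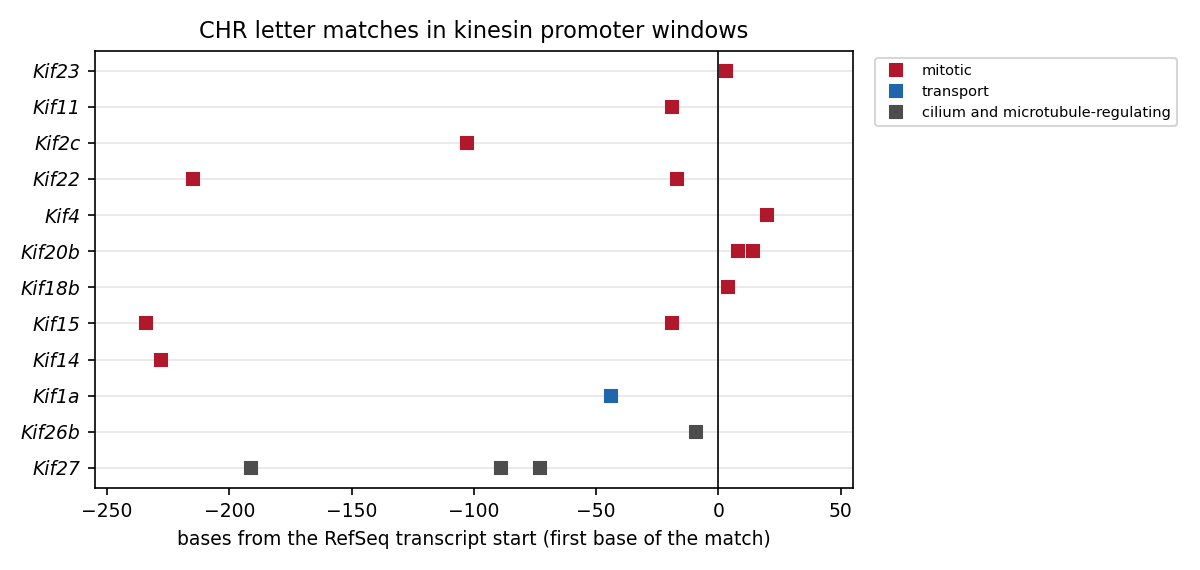
Position of each TTTGAA match, on either strand, in the promoter windows of kinesins that hold one, in bases from the RefSeq transcript start; colours give the role. In 7 of the 9 mitotic kinesins shown a match lies within 25 bases of the start, in Kif11 and Kif15 at the same place, 19 bases before it.

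The 120 bases before the RefSeq start are shown for mitotic kinesins with and without a called difference and for the called transport kinesins, 5′ to 3′ along the gene. The genes were picked by name, and the mitotic ones shown are those with a TTTGAA match in these bases. The other mitotic kinesins with a window have none there. In Kif18b, Kif20b, Kif23 and Kif4 the match lies after the start, in Kif14 it lies 228 bases before it, and Kif18a has none. Capitals mark TTTGAA or its reverse complement TTCAAA, and CCAAT or its reverse complement ATTGG. Kif11 (chr19:37376262-37376381, plus strand) and Kif22 (chr7:127042421-127042540, minus strand) hold both, Kif15 (chr9:122950961-122951080, plus strand) and Kif2c (chr4:117178773-117178892, minus strand) hold TTCAAA, and Kif3c (chr12:3365012-3365131, plus strand) and Kif1c (chr11:70700428-70700547, plus strand) hold neither.
Kif11: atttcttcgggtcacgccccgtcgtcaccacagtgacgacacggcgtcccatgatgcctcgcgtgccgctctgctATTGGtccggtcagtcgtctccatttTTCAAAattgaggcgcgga
Kif15: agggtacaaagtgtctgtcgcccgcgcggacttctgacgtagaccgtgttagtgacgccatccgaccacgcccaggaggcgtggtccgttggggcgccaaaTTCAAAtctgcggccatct
Kif22: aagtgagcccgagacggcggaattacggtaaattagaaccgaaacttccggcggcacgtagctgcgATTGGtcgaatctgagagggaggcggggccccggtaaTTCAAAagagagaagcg
Kif2c: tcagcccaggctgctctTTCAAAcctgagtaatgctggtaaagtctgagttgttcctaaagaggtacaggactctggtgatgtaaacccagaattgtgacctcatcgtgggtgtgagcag
Kif3c: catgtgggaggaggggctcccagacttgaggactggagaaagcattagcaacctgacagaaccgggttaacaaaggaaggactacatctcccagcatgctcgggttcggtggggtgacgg
Kif1c: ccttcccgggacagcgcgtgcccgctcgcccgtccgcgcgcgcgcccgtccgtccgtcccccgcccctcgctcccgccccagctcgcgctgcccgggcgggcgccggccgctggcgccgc

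Of the transport kinesins, 2 rose and none passed the test as lower. Kif3c, which can take the place of Kif3b as partner of Kif3a, was measured at 58.55, 51.70 and 59.24 CPM in shSCR and at 98.10, 94.17 and 93.36 CPM in shPostn. All shPostn values lay far above all shSCR values, and the means were 56.5 ± 4.17 and 95.2 ± 2.53 CPM (SD, n = 3 each). Kif3c rose by 0.75 ± 0.07 on the log2 scale (SE, edgeR adjusted p = 0.00313), and by 0.77 without shPostn replicate 3 (adjusted p = 0.00123). It lies on chromosome 12, at 3365132 to 3406494 of GRCm38, where 374 genes with a mean above 4 CPM had a median log2 fold change of 0.39. With chromosome medians taken out, Kif3c rose by 0.36 (adjusted p = 0.0341). The antisense gene 1110002L01Rik, not in the table, overlaps 35.3% of the Kif3c exons, so its reads cannot be told from those of Kif3c unless strand was used.

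Its partners did not pass the test. Kif3a, the constant subunit of heterotrimeric kinesin, had 34.64, 34.45 and 36.70 CPM in shSCR and 36.94, 39.07 and 35.47 CPM in shPostn (0.08, 95% interval -0.08 to 0.24, edgeR adjusted p = 0.524). Kif3b, the usual second subunit and a motor of cilium assembly, had 47.53, 47.05 and 48.02 CPM in shSCR and 47.46, 45.14 and 44.66 CPM in shPostn (-0.06, 95% interval -0.19 to 0.08, adjusted p = 0.579). The groups overlapped for both genes. Per kilobase, Kif3c made up 48.38%, 45.53% and 48.42% of Kif3b and Kif3c together in shSCR and 61.13%, 61.35% and 61.40% in shPostn, and the groups did not overlap. Which of the pair was the more abundant in shSCR depended on the length used: with the longest transcript Kif3c made up 50.55%, 47.69% and 50.58% in shSCR and 63.17%, 63.38% and 63.43% in shPostn.

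Kif1c, a fast motor of vesicles and messenger RNA, was measured at 139.5, 142.4 and 139.2 CPM in shSCR and at 174.4, 179.3 and 160.6 CPM in shPostn. The groups did not overlap, and Kif1c rose by 0.29 ± 0.06 on the log2 scale (SE, edgeR adjusted p = 0.0316), on chromosome 11 with a median of 0.08. Without shPostn replicate 3 it rose by 0.33 (adjusted p = 0.00909). The call ended without any other library: the adjusted p was 0.121, 0.117 and 0.121 without shSCR replicates 1 to 3, and 0.0701 and 0.0920 without shPostn replicates 1 and 2. It ended with chromosome medians taken out as well (0.21, adjusted p = 0.0983) and with the replicate block (0.0694). Kif1b, its relative that carries mitochondria and synaptic vesicle precursors, had 208.2, 191.2 and 212.5 CPM in shSCR and 185.8, 178.8 and 185.6 CPM in shPostn, without overlap (-0.15 ± 0.06, adjusted p = 0.174). Per kilobase, Kif1c made up 62.5% ± 1.599 of the pair in shSCR and 69.3% ± 1.57 in shPostn (SD, n = 3 each), and the 2 ranges did not overlap. The share depended on the length used: with the longest transcript it was 51.3% ± 1.71 in shSCR and 58.8% ± 1.78 in shPostn.

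Kif5b, the conventional kinesin found in nearly all cells, was measured at 198.2, 187.5 and 198.4 CPM in shSCR and at 168.3, 145.8 and 164.8 CPM in shPostn. The groups did not overlap, but the adjusted p of 0.0509 missed the threshold (log2 fold change -0.29 ± 0.07, SE, edgeR). Without shPostn replicate 3 it was -0.31 with an adjusted p of 0.0334. Kif5b lies on chromosome 18 as Kif20a does, and with chromosome medians taken out its sign turned, to 0.16 (adjusted p = 0.246).

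Kif5c, a neuronal form of the same motor, had few reads: 1.870, 2.150 and 1.929 CPM in shSCR and 3.284, 4.701 and 16.13 CPM in shPostn. All shPostn libraries were above shSCR, but replicate 3 was far above the other 2. The log2 fold change was 2.02 ± 0.63 (SE, edgeR adjusted p = 0.101), and without shPostn replicate 3 it was 1.01 (adjusted p = 0.0316). Of the Kif5 motors per kilobase, Kif5c made up 1.04%, 1.26% and 1.07% in shSCR and 2.13%, 3.47% and 9.83% in shPostn, and Kif5b the greater part in every library. Replicate 3 of shPostn is also the library with high leukocyte markers. With these markers as a covariate the log2 fold change of Kif5c was 1.51 (edgeR adjusted p = 0.0205), in a fit that called 17.1% of all genes. The part of leukocytes in the Kif5c values was not tested. Of a list of 10 neuronal and Schwann cell markers, Sox10, Syt1 and Rbfox3 were at most 0.102 CPM and Snap25 at most 0.246 CPM. Only 3 of the 10 had enough counts to be tested. Their log2 fold changes were 0.13, 0.58 and 1.89, all above 0, and edgeR called 1 higher, beside 4.61% of all genes. The whole list summed to 9.58 to 14.8 CPM in shSCR and 22.5 to 46.1 CPM in shPostn, mostly from Gap43, which was measured at 11.02, 5.912 and 8.731 CPM in shSCR and 43.04, 19.61 and 32.82 CPM in shPostn (1.89 ± 0.36, SE; adjusted p = 0.0300).

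The endosomal and vesicle motors Kif13a, Kif13b and Kif16b had log2 fold changes of -0.03, -0.15 and -0.07 (edgeR adjusted p = 0.878, 0.553 and 0.672), with overlapping groups. In all, 2 of 10 tested transport kinesins rose and 0 fell, with a median log2 fold change of -0.04, while edgeR called 10.1% of all genes in either direction. An unadjusted edgeR p under 0.05 was found in 5 of 10, against 27% of all genes tested. DESeq2 called 3 higher and 1 lower, the added genes being Kif5c and Kif5b, while it called 15.4% of all genes. The groups did not overlap in 5 of 10, in 3 with shPostn above and in 2 below. Over all genes tested this held for 33.6%, with 16.6% above and 17% below. Summed over the group, transport kinesins gave 782.6, 760.5 and 799.5 CPM in shSCR and 803.3, 790.7 and 794.0 CPM in shPostn, 781 ± 19.5 against 796 ± 6.53 CPM (SD, n = 3 each), and the groups overlapped.

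Set side by side, the summed mitotic kinesins were lower in every shPostn library than in every shSCR library, and the summed transport kinesins were not separated. Whether the groups differ from each other was not tested, since the genes share libraries and were grouped by known function. Without the genes of chromosomes 12 and 18, which take out Kif20a, Kif5b and Kif3c of those tested, 2 of 10 mitotic kinesins were lower and 1 of 8 transport kinesins was higher, beside 958 of 12008 genes in all. The medians were then -0.27 and -0.04, as before. Within the Kif20 pair, Kif20a made up 84.1% ± 0.820 per kilobase in shSCR and 81.1% ± 0.875 in shPostn (SD, n = 3 each), and Kif20b had fewer reads in both groups.

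Among the kinesins of cilia and microtubule ends, Kif21a had the largest called change of all kinesins. Its protein binds microtubule plus ends and slows their growth. Kif21a was measured at 15.15, 16.22 and 17.87 CPM in shSCR and at 31.45, 33.51 and 28.82 CPM in shPostn. The lowest shPostn library lay well above the highest shSCR library, with means of 16.4 ± 1.37 and 31.3 ± 2.35 CPM (SD, n = 3 each). Kif21a rose by 0.93 ± 0.09 on the log2 scale (SE, edgeR adjusted p = 0.00395), by 0.99 without shPostn replicate 3 (adjusted p = 0.00112), and by 0.92 with chromosome medians taken out (adjusted p = 0.00567). It lies on chromosome 15, at 90933276 to 91049948 of GRCm38, where the median was 0.01.

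Its close relative Kif21b, a slow motor that also limits microtubule growth, was measured at 52.30, 47.59 and 37.06 CPM in shSCR and at 13.95, 27.90 and 33.27 CPM in shPostn. The groups did not overlap, but the shPostn libraries were spread widely. The log2 fold change was -0.87 ± 0.33 (SE, edgeR adjusted p = 0.163), and without shPostn replicate 1, the lowest library, it was -0.58 (adjusted p = 0.0970). Per kilobase, Kif21a made up 35.28%, 39.07% and 47.57% of the pair in shSCR and 80.92%, 69.32% and 61.98% in shPostn. Kif21b was thus the more abundant of the pair in every shSCR library and Kif21a in every shPostn library, also with the longest transcript as length (29.4% to 40.9% and 55.5% to 76.4% Kif21a).

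Kif24, which trims centriolar microtubules and holds back cilium formation, was measured at 12.79, 14.12 and 13.45 CPM in shSCR and at 8.465, 8.947 and 9.441 CPM in shPostn, with no overlap. Kif24 fell by 0.59 ± 0.10 on the log2 scale (SE, edgeR adjusted p = 0.0144), and by 0.63 without shPostn replicate 3 (adjusted p = 0.0102). The call ended without any 1 shSCR library (adjusted p = 0.0520, 0.0783 and 0.0682 without replicates 1 to 3). With chromosome medians taken out it fell by 0.45 (adjusted p = 0.0499).

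Kif26b was measured at 155.2, 214.2 and 190.2 CPM in shSCR and at 157.6, 223.6 and 224.5 CPM in shPostn, with overlapping groups (0.11 ± 0.17, SE; edgeR adjusted p = 0.725). Kif2a, a depolymerase at spindle poles and in growing cell processes, had 48.36, 38.11 and 42.54 CPM in shSCR and 44.64, 41.09 and 40.11 CPM in shPostn (-0.04 ± 0.10, adjusted p = 0.846). Kif7, which organises the tip of the primary cilium for Hedgehog signalling, had 11.61, 15.54 and 14.16 CPM in shSCR and 8.619, 10.21 and 11.39 CPM in shPostn. Its groups did not overlap (-0.45 ± 0.15, adjusted p = 0.109), and without shPostn replicate 3 it fell by 0.55 (adjusted p = 0.0482). Kif9 had a log2 fold change of -0.38 (adjusted p = 0.610) on 5 to 12 counts per library. An antisense gene overlaps 19.1% of the Kif7 exons, and Dimt1 on the other strand overlaps 19.2% of the Kif2a exons. Of the 7 genes tested in this group 1 rose and 1 fell, while edgeR called 10.1% of all genes in either direction. The median log2 fold change was -0.38, and 5 of 7 lay below 0, against 48.4% of all genes tested. In edgeR 4 of 7 had an unadjusted p under 0.05, against 27% of all genes tested. Every shPostn library lay below shSCR in 3 of 7 and above in 1, against 17% and 16.6% of all genes. Summed CPM overlapped, with 295.8 to 346.5 in shSCR and 264.9 to 348.1 in shPostn. DESeq2 called 1 higher and 2 lower, the added gene being Kif21b (DESeq2 adjusted p = 0.0245), while it called 15.4% of all genes.

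Kinesin genes with other symbols did not pass the test. Of 5 tested, edgeR called 0, 0 had an unadjusted p under 0.05, and DESeq2 called 0. Cenpe, the kinetochore motor, had 123.8 ± 2.97 CPM in shSCR and 125.2 ± 9.03 CPM in shPostn (SD, n = 3 each), a difference of 0.02 on the log2 scale (95% interval -0.15 to 0.18, edgeR adjusted p = 0.906). Kifc3 had 53.5 ± 5.05 and 52.5 ± 4.07 CPM (-0.03, adjusted p = 0.874).

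The partners of these motors were read from lists by function, and their counts stand beside 4.61% of all genes called higher and 5.53% called lower. Of 26 mitotic kinesin partners 1 fell and 0 rose: Cdca8 (borealin), on chromosome 4, fell by 0.49 ± 0.08 on the log2 scale (SE, edgeR adjusted p = 0.0146). The other members of its chromosomal passenger complex did not pass, with -0.11 for Aurkb, -0.15 for Birc5 and -0.21 for Incenp (adjusted p = 0.526, 0.378 and 0.156). The median of the 26 was -0.14, and 23 lay below 0. A further list of 20 held genes of the G2 and M phases and 6 regulators of their promoters (E2f4, Rbl1, Rbl2, Lin9, Lin37 and Lin54), which lay between -0.13 and 0.05. In it 2 fell, Cdc25c by 0.53 (adjusted p = 0.0209), on chromosome 18, and the securin gene Pttg1 by 0.35 (adjusted p = 0.0478), and the median over all 20 was -0.14. Of 20 genes of the G1 and S phases 1 rose, the ribonucleotide reductase gene Rrm2 on chromosome 12, by 0.55 (adjusted p = 0.0416), with a median of -0.08. The medians of the mitotic kinesins and of these lists are given side by side and their differences were not tested.

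Of 18 light chain, accessory and adaptor genes 1 rose and 1 fell, again beside 10.1% of all genes called in either direction. Klc1, a light chain of conventional kinesin on chromosome 12, rose 1.26-fold (edgeR adjusted p = 0.0375), and Plekhm2, which links lysosomes to kinesin, fell by 0.26 on the log2 scale (adjusted p = 0.04996). Of 24 genes of cytoplasmic dynein and dynactin, the motor of the opposite direction, 1 rose and 2 fell, beside the same share of all genes: Actr10 on chromosome 12 rose by 0.46 (adjusted p = 0.0126), Dctn4 on chromosome 18 fell by 0.53 (adjusted p = 0.00708) and Dync1li1 on chromosome 9 fell by 0.23 (adjusted p = 0.0425). Of 12 tubulin genes 0 passed edgeR's test, and 4 had an unadjusted p under 0.05, against 27% of all genes tested. DESeq2 called 1 tubulin gene higher and 2 lower, while it called 15.4% of all genes in either direction. The most abundant, Tuba1b, had 1869 ± 119 CPM in shSCR and 1686 ± 255 CPM in shPostn (SD, n = 3 each).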

How the data were processed

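RNA of 6 libraries (3 shSCR, 3 shPostn, grouped by the genotype label) was sequenced from strand-specific poly(A) libraries, per the labels' protocols. The deposited values are estimated counts per Ensembl gene from Salmon and mm10, made by the authors, per the submitters' processing notes; for the version, annotation and strand setting nothing is stated in the sources used here. All values were whole, so rounding changed none. Totals lay between 19603269 and 20376554 counts.

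Gene IDs were matched to GENCODE M21 (35422 of 35727 had a symbol). Genes passing filterByExpr (minimum count 10) were tested with edgeR 4.0.16 in R 4.3.3 (TMM factors, robust quasi-likelihood F-test, Benjamini-Hochberg adjustment over 12819 genes, threshold 0.05), without covariates, since no batch or animal is labelled. CPM use TMM-scaled library sizes. Only genes above a mean of 4 CPM entered chromosome medians. Alternatives included DESeq2 1.42.0 and limma 3.58.1. Promoter sequences are from RefSeq. Members, lists and alternatives were chosen with earlier results of these data known. Libraries are named individually for every called kinesin and the 4 most abundant of each role; other lists name their called members, up to 4 each way, or the 2 most abundant. Thy1, the complex members beside Cdca8, the promoter regulators, Kif14, Kif3a, Kif3b, Kif5c and Kif7 were given more fully after their values were seen.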

Additional observations from a re-analysis of the deposited data

How the results depend on the processing

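With 4 kinesins called lower and 3 higher among 1300 called genes, the number called lower was 8 with DESeq2, 7 with the leukocyte markers as a covariate, 1 with chromosome medians taken out, and 1 to 5 when 1 library was left out; the number called higher lay between 2 and 4 in every alternative run. Genes called in all were 1973 with DESeq2, 2192 with the leukocyte covariate, 654 with chromosome medians taken out, and 307 to 2220 with 1 library left out, fewest without shSCR replicate 2 and most without shPostn replicate 3. Fits with 1 library left out have fewer samples. The direction of Kif5b turned with chromosome medians taken out (0.16). When 1 library was left out, log2 fold changes of genes that were not called ran from -0.15 to 0.0385 for Kif13a, from -0.13 to 0.001 for Kif16b, from -0.0348 to 0.19 for Kif23, from -0.0021 to 0.27 for Kif26b and from -0.12 to 0.0574 for Kif2a. The cause of these changes was not tested.

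Replicate numbers are common to both groups, but the labels do not say that they pair the samples, and deviations of same-numbered libraries correlated at -0.07, -0.13 and -0.44, so they were not taken as pairs. With the replicate number as a block, 735 genes were called, 2 kinesins higher and 3 lower, and Kif1c and Kif22 lost the call.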
